A study of Mus musculus with 8 samples.

Results

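Krüppel-like factors (Klf) are transcription factors that bind GC-rich and CACCC-type DNA through C-terminal zinc fingers, and 10 of them were followed here: Klf2, Klf3, Klf4, Klf5, Klf6, Klf7, Klf9, Klf10, Klf11 and Klf13. They were taken by symbol from a table of 25247 mouse genes, and all 10 had enough counts to be tested. Bulk RNA was measured in Langerhans cells, which are dendritic cells resident in the epidermis. They were taken from the ears of C57BL/6 mice by sorting DAPI-negative cells that carried CD45, MHC class II, CD24 and EpCAM and lacked Ly6G and CD103. The groups were wild-type mice (WT) and mice labelled EZH2 -/- (KO), Ezh2 being a Polycomb H3K27 methyltransferase. Age, treatment, and the promoter or cell type in which Ezh2 was deleted are not given in the sources used here. According to its title, the series asks how Ezh2 bears on Langerhans cell migration and on allergic contact dermatitis.

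Several of these factors are known in skin and blood cells. Klf4 and Klf5 act in the differentiation and proliferation of epithelia, Klf2 in endothelium and in the quiescence and trafficking of T cells, and Klf4 also in monocytes. Klf6, Klf4, Klf2 and Klf10 transcripts are induced within minutes to hours by many stimuli, Klf10 and Klf11 were named for their induction by TGF-beta, and Klf9 is a classical glucocorticoid-induced gene. Klf3 is a repressor that recruits CtBP, and Klf9, Klf10, Klf11 and Klf13 recruit the Sin3a corepressor.

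Each of the 8 libraries is known by a code, and the labels give the genotype of 4 of them in opposite ways. RMN030 and RMN031 were WT, and RMN038 and RMN039 KO, by both title and description. RMN032 and RMN033 were KO by title and WT by description, and RMN036 and RMN037 the reverse. The contrast KO minus WT was therefore computed for the 4 undisputed libraries (n = 2 each), by title (n = 4 each) and by description (n = 4 each). By description the genotype is the same division as the earlier codes (RMN030 to RMN033) against the later codes (RMN036 to RMN039), so genotype and code run cannot be told apart there or in the undisputed libraries. By title each run holds 2 libraries of each genotype, and a fit with run as a covariate was possible. The labels say neither what the code runs stand for nor that each library is a different animal. All p-values below therefore refer to variation among these 8 libraries, and part or all of it could be technical.

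Library totals ranged from 11051402 to 18966195 counts. Ezh2, the targeted gene, was at 15.7, 22.4, 15.2 and 14.9 CPM (counts scaled to the library total) in RMN030 to RMN033 and at 19.0, 17.6, 12.7 and 10.5 CPM in RMN036 to RMN039. By title all 4 WT libraries (15.7 CPM or more) lay narrowly above all 4 KO libraries (15.2 CPM or less) in Ezh2. Its title log2 fold change was -0.49 (SE 0.18, edgeR adjusted p = 0.998), and 1.53% of all tested genes lay wholly lower in KO by title. By description the Ezh2 groups overlapped (-0.15, SE 0.22, edgeR adjusted p = 0.869). In the undisputed libraries the Ezh2 log2 fold change was -0.66 (SE 0.31, edgeR adjusted p = 0.455). By title with run as a covariate it was -0.50 (SE 0.18, edgeR adjusted p = 0.739). Which exons were deleted is not given in the labels, so counts over the whole gene need not fall in KO cells. Langerhans cell markers were abundant throughout, with Cd207 (langerin) at 9706 to 11963 CPM. Keratinocyte markers (23 of 24 in the table) summed to 18938 to 24374 CPM in the earlier and 20116 to 22863 CPM in the later codes. T cell markers (19 of 19) summed to 371 and 353 CPM in RMN030 and RMN031 and to 58.3 CPM or less elsewhere. Blood markers (6 of 7) summed to 123 to 227 CPM in the earlier and 581 to 1356 CPM in the later codes, and the mitochondrial share of counts was 1.02% to 1.87% and 3.76% to 4.03%. None of the marker genes in the table was at 0 in all libraries. In bulk RNA, fewer cells of a type and less RNA per cell cannot be told apart.

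Promoter sequence was held for 8 of the 10 genes in the RefSeq table (GRCm38.p6, 250 bases before to 50 after the start site), with no entry for Klf5 and Klf10. The 2 shown belong to the genes with the highest length-scaled levels, and capitals mark GGGCGG, the GC box, and CACCC, the motif class that the family itself binds, on either strand. Klf13, which differed by description, lies on the minus strand (chr7:63938866-63939165), and Klf6, which passed in no fit, on the plus strand (chr13:5861239-5861538).
Klf13: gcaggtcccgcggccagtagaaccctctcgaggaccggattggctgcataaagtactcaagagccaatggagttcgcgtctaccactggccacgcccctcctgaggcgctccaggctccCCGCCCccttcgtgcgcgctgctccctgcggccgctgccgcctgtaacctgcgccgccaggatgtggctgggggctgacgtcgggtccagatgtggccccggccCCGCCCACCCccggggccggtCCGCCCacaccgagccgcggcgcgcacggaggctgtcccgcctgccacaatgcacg
Klf6: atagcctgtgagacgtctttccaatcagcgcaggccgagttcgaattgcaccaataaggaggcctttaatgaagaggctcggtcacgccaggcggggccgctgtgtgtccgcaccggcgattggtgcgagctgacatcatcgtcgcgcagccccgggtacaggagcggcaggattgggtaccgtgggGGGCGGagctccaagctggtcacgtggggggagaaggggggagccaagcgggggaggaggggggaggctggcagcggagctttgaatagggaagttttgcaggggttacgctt
The Klf13 window held 3 GC boxes and 1 CACCC, of which the CACCC overlaps a GC box, and the Klf6 window held 1 GC box and no CACCC. A GC box was present in 7 of the 8 promoters, against 35.7% of all 32851 promoters in the table, and CACCC in 5 of 8, against 57.5%. The cyclic AMP motif TGACGTCA, the AP-1 motif TGAGTCA, the heat shock motif GAANNTTC and the TATA motif TATAAA were in 0 of the 8, against 1.79%, 5.2%, 7.86% and 13.6% of all. All 8 windows were rich in CpG, from 16 (Klf7) to 42 (Klf11) against a median of 7. These are matches of letters in a window, not evidence of binding.

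Klf6 was the most abundant of the 10 and Klf2 the least. Scaled by the length of the annotated exons, the level of Klf6 was 215 ± 28.1 CPM per kb (mean ± SD over 8 libraries), that of Klf13 69.3 ± 11.2 and that of Klf10 42.9 ± 3.99. Klf5 followed at 24.1 ± 8.87 CPM per kb, with the widest spread of the genes above 10 CPM per kb relative to its mean. The remaining genes were Klf4 at 16.0 ± 2.49, Klf7 at 13.5 ± 1.20, Klf9 at 7.68 ± 1.25, Klf11 at 6.65 ± 0.945, Klf3 at 3.44 ± 0.72 and Klf2 at 1.46 ± 0.783 CPM per kb. Without length scaling the lower order changed: by mean CPM Klf7 (109) lay above Klf4 (48.8), and Klf3 (38.6) above Klf11 (28.8). The length-scaled order from Klf6 to Klf10 and on to Klf5 held in 8 of 8 libraries without overlap of ranges. Neighbours that overlapped were Klf5 and Klf4 (in order in 6 of 8 libraries), Klf4 and Klf7 (8 of 8), Klf9 and Klf11 (6 of 8), and Klf3 and Klf2 (7 of 8). Antisense transcripts of other genes overlap exons of Klf3 and Klf7, and those present in the count table averaged 0.0318 and 0.455 CPM.

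**Figure D1:**
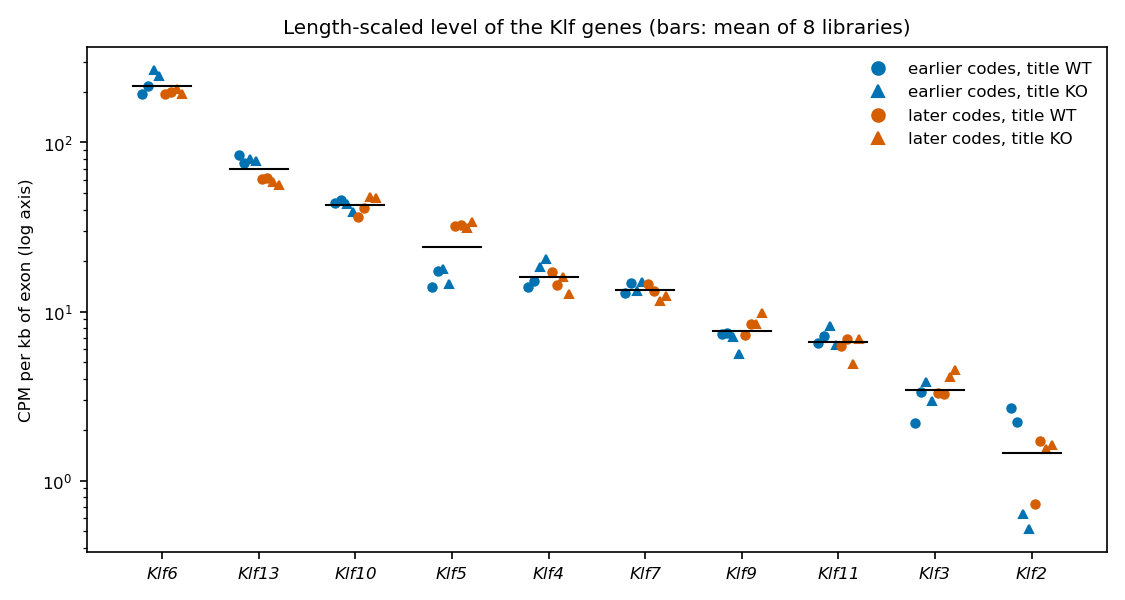
Length-scaled level (CPM per kb of annotated exon, log axis) of each Klf gene in 8 libraries, ordered by mean. Circles are WT and triangles KO by title, blue the earlier and orange the later codes, and bars the mean. Klf6 stands highest at 215 CPM per kb, and the later codes of Klf5 lie apart from its earlier codes.

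Klf5 was about 2 times as high in the later codes as in the earlier ones, and it did not follow the title genotype. Klf5 (ENSMUSG00000005148, GRCm38 chromosome 14, 99298691 to 99315036, plus strand, protein coding) was at 72.9, 90.5, 92.9 and 75.6 CPM in RMN030 to RMN033. In the later codes, RMN036 to RMN039, it was at 166, 169, 162 and 175 CPM. These levels rest on 955 to 2819 counts per library. All 4 later libraries thus lay above all 4 earlier ones, whichever genotype their titles gave.

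By description Klf5 was higher in KO (83.0 ± 10.2 CPM in WT, 168 ± 5.62 in KO, SD, n = 4 each), by 2.09-fold (95% confidence interval 1.80 to 2.42) with an edgeR adjusted p of 8.2e-05. In the undisputed libraries it was 2.13-fold higher in KO (81.7 ± 12.4 against 169 ± 9.43 CPM, SD, n = 2 each, edgeR adjusted p = 0.00923). By title, WT and KO were at 125 ± 50.1 and 126 ± 49.6 CPM (SD, n = 4 each). The fit with run as a covariate gave a title log2 fold change of 0.02 (95% confidence interval -0.19 to 0.24, edgeR adjusted p = 0.989), which bounds the title contrast between 0.874-fold and 1.18-fold. The same fit gave the later against the earlier codes a difference of 2.09-fold (95% confidence interval 1.79 to 2.43, edgeR adjusted p = 1.2e-04). Within the earlier run alone the title log2 fold change of Klf5 was 0.01 (SE 0.18), and within the later run 0.04 (SE 0.09). The interaction of title genotype with run was 0.03 (SE 0.20, edgeR adjusted p = 0.985).

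Klf5 is an epithelial gene, and single keratinocyte markers moved with it although their sum, given above, overlapped between the code runs. By description 4 of the 22 tested keratinocyte markers rose and 2 fell, against 1.43% and 0.595% of all genes. In the undisputed libraries 2 rose and 1 fell, where 0.794% of all genes were called in either direction. The tight junction gene Cldn4 was at 152, 148, 236 and 270 CPM in RMN030 to RMN033 and at 411, 447, 428 and 399 CPM in RMN036 to RMN039. Grhl3, a transcription factor gene of the epidermal barrier, was at 13.1 to 19.7 CPM in the earlier and 31.2 to 39.6 CPM in the later codes. By description Cldn4 rose 2.16-fold (edgeR adjusted p = 0.00350), Grhl3 2.06-fold (adjusted p = 0.00484) and the keratin gene Krt79 2.16-fold (adjusted p = 0.00769). Krt1, named after its values were seen, rose 1.82-fold, while the basal cell genes Krt15 and Trp63 fell by 0.45 and 0.74 on the log2 scale. None of these 6 genes overlapped between the code runs, but they were named because they passed by description, which is the same division. Of all tested genes 3.74% lay wholly higher and 5.09% wholly lower in KO by description. The mitochondrial share and the blood markers also moved with Klf5, without overlap between runs, as did 15 summed fibroblast, endothelial and melanocyte markers (57.4 to 91.4 CPM in the earlier and 146 to 223 CPM in the later codes) and 7 summed mast cell markers (31.1 to 43.4 and 47.6 to 66.4 CPM). The 16 summed monocyte and macrophage markers overlapped between runs (2835 to 3294 CPM in the earlier and 2467 to 2982 CPM in the later codes). Of the 15 tested, 3 rose and 1 fell by description, against 1.43% and 0.595% of all genes. The part of all these markers in the difference of Klf5 was not tested. Without RMN030 and RMN031, the libraries with T cell transcripts, the description log2 fold change of Klf5 was 1.06 (SE 0.11, edgeR adjusted p = 0.00128).

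**Figure D2:**
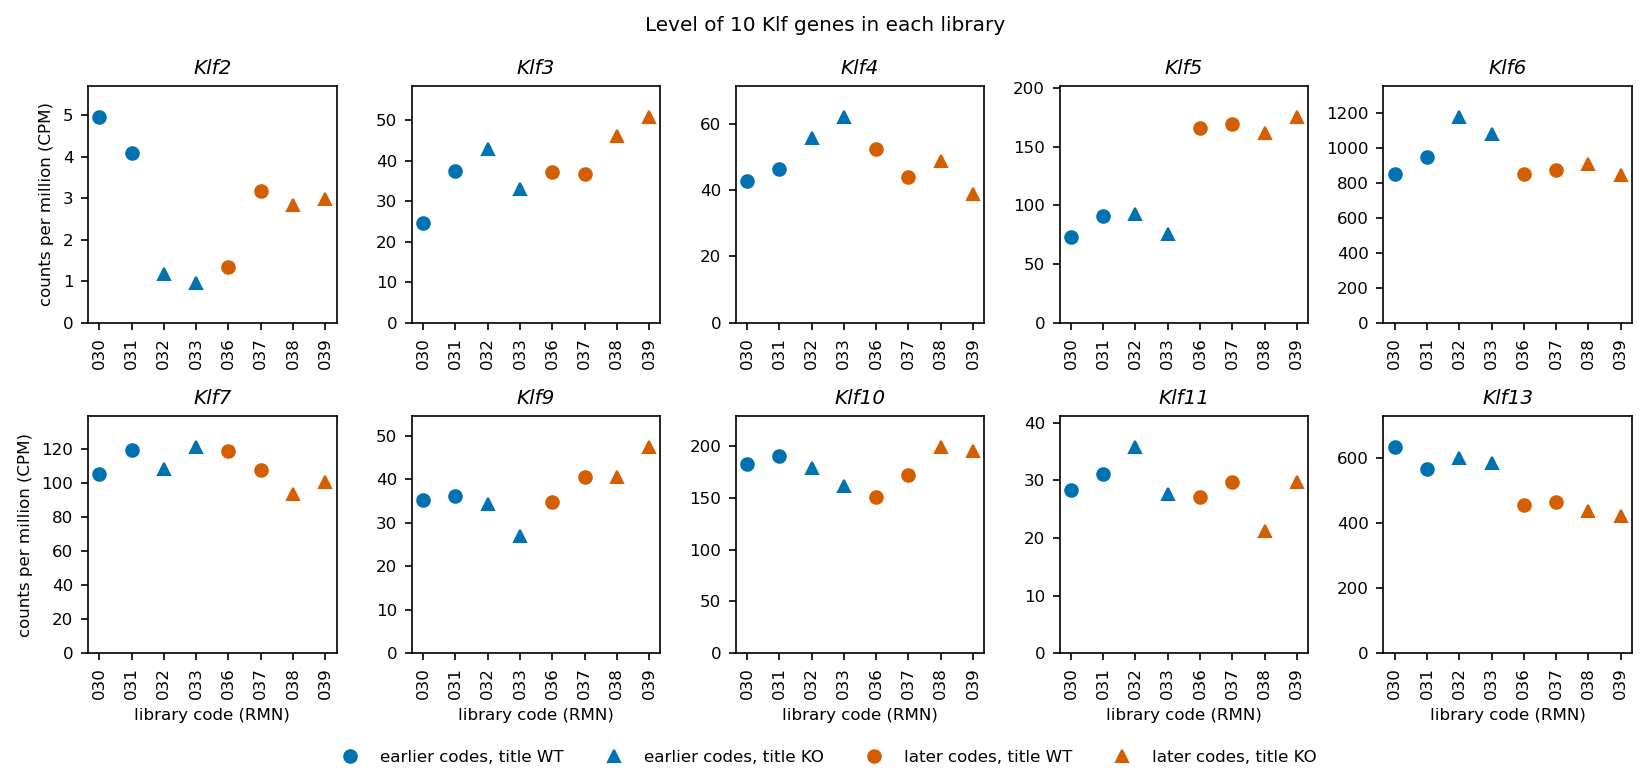
CPM of each Klf gene in the 8 libraries (linear axes from 0, one panel per gene). Circles are WT and triangles KO by title, blue the earlier and orange the later codes. Klf5 sits at 72.9 to 92.9 CPM in the earlier and 162 to 175 CPM in the later codes, Klf13 steps down between the same libraries, and Klf2 is highest in RMN030 and RMN031.

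Klf13 moved the opposite way. Klf13 (ENSMUSG00000052040, chromosome 7, 63886351 to 63938915, minus strand), a Sin3a-recruiting factor known in lymphocytes for its part in induction of the chemokine gene Ccl5, was at 634, 568, 601 and 586 CPM in RMN030 to RMN033. In RMN036 to RMN039 it was at 456, 467, 438 and 422 CPM, again with no overlap between the code runs. By description it fell by 0.38 on the log2 scale (SE 0.08, edgeR adjusted p = 0.0217), from 597 ± 27.9 CPM in WT to 446 ± 19.5 in KO (SD, n = 4 each). That call is close to the threshold: without RMN033, RMN036, RMN038 or RMN039 the adjusted p was 0.0594, 0.0643, 0.0667 and 0.0745. Without RMN030 and RMN031 it was 0.0431. In the undisputed libraries the log2 fold change was -0.44 (SE 0.13) and did not pass (adjusted p = 0.210). By title with run as a covariate it was -0.07 (95% confidence interval -0.23 to 0.10, adjusted p = 0.932).

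Read across the family, 2 of the 10 passed by description, 1 higher (Klf5) and 1 lower (Klf13), where 1.43% of the 14630 tested genes were called higher and 0.595% lower. The later against the earlier codes, adjusted for title genotype, called the same 2 genes, with 1.58% of all genes called higher and 0.766% lower. Klf5 and Klf13 were also the 2 members whose CPM did not overlap between the description groups, where 3.74% of all tested genes lay wholly higher and 5.09% wholly lower. In the undisputed libraries 1 of the 10 passed (Klf5), against 0.794% of 14727 genes. The median log2 fold change of the 10 was -0.07 by description and 0.02 in the undisputed libraries, against -0.01 and -0.00 for all tested genes, so the middle of the family lay close to that of the other genes.

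By title no member passed in edgeR, 0 of the 10 had an unadjusted p under 0.05, and no member passed with DESeq2 or limma voom. Over all genes the title reading called 0% of 14630 in edgeR (672 at an unadjusted p under 0.05, and 19 calls with DESeq2), and with run as a covariate 0% (900 at an unadjusted p under 0.05, and 46 calls with DESeq2). No member had CPM groups without overlap by title, where 1.41% of genes lay wholly higher and 1.53% wholly lower in KO. With run as a covariate 2 members had an unadjusted p under 0.05 and neither passed: Klf3 was higher in KO by 0.34 (log2, SE 0.15) and Klf6 by 0.17 (SE 0.08), each at an adjusted p of 0.805. The 95% confidence interval ran from 0.0050 to 0.67 for Klf3 and from 0.0035 to 0.34 for Klf6.

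**Figure D3:**
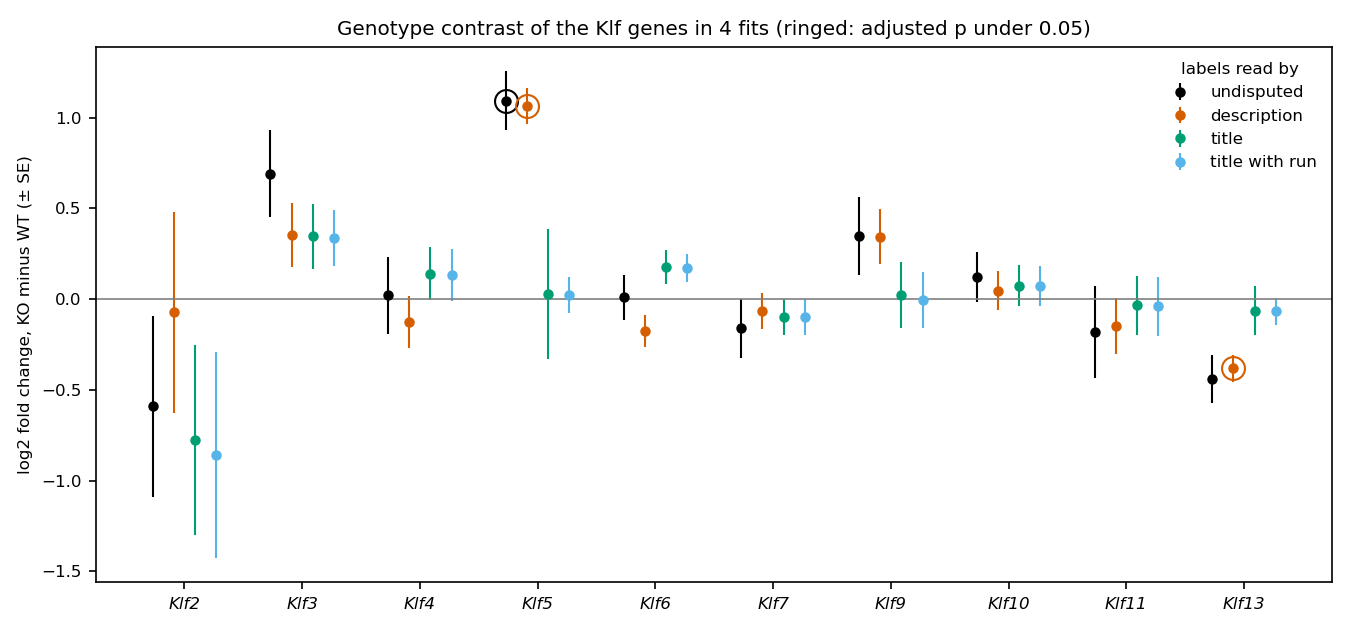
log2 fold change, KO minus WT, with its standard error for each Klf gene under 4 ways of reading the labels (undisputed libraries, description, title, title with run as a covariate). Rings mark an edgeR adjusted p under 0.05: Klf5 at 1.09 and 1.06 in the undisputed and description fits, and Klf13 at -0.38 by description. Both title fits of Klf5 lie at 0.03 and 0.02.

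The other early-response members were level or varied without a call. Klf6, a ubiquitous factor induced early after injury, was at 852, 951, 1179 and 1080 CPM in RMN030 to RMN033 and at 850.1, 875, 912 and 845 CPM in RMN036 to RMN039. Its 2 highest libraries were RMN032 and RMN033, which are KO by title and WT by description, so its log2 fold change was 0.18 by title (SE 0.09) and -0.18 by description (SE 0.09, adjusted p = 0.456). Klf4, which directs epidermal barrier formation and monocyte differentiation, had its highest values in the same 2 libraries, at 55.8 and 62.0 CPM, and 38.9 to 52.3 CPM in the other 6. Its log2 fold changes were 0.14 by title (SE 0.14) and -0.13 by description (SE 0.14). Klf10 was at 183, 191, 180 and 162 CPM in RMN030 to RMN033 and at 151, 172, 199 and 195 CPM in RMN036 to RMN039. By title Klf10 was lower in KO in the earlier codes (187 against 171 CPM) and higher in the later codes (162 against 197 CPM), and the interaction, 0.49 (SE 0.16, unadjusted p = 0.0118), did not pass over all genes (edgeR adjusted p = 0.467).

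Klf2 stood out for its dependence on RMN030 and RMN031. It was at 4.96 and 4.09 CPM there, at 1.16 and 0.949 in RMN032 and RMN033, at 1.34 in RMN036 and at 3.18, 2.84 and 2.99 in RMN037 to RMN039, on 18 to 76 counts per library. Summed T cell markers were highest in the same 2 libraries (371 and 353 CPM), and ranged from 42.4 to 58.3 CPM over the other 6, in which Klf2 ranged from 0.949 to 3.18 CPM. Their part in the Klf2 level was not tested. Of 5 tested endothelial and lymphocyte Klf2 targets, 0 passed in each of the 3 readings (edgeR, 3 at an unadjusted p under 0.05 in the undisputed libraries and 0 in the others). The title log2 fold change of Klf2 was -0.78 (SE 0.53, adjusted p = 0.998) and with run as a covariate -0.86 (SE 0.57). Within the later run alone, 2 libraries against 2, it was 0.39 (SE 0.67, adjusted p = 0.961). By description it was -0.07 (SE 0.55), and 1.35 without those libraries (adjusted p = 0.473). The interaction with run was 2.52 (SE 0.83, unadjusted p = 0.0110) and did not pass (adjusted p = 0.460). Of all genes, 0.0478% passed for that interaction, and none of the 10 members did.

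Klf9 and Klf3 leaned higher in the later codes without passing. Klf9 was at 35.3, 36.1, 34.3 and 26.9 CPM in RMN030 to RMN033 and at 34.8, 40.6, 40.6 and 47.4 CPM in RMN036 to RMN039, and by description it differed by 0.34 (log2, SE 0.15, adjusted p = 0.351). Klf3 was at 24.7, 37.4, 43.0 and 33.01 CPM in the earlier and at 37.1, 36.8, 46.2 and 50.9 CPM in the later codes. Its log2 fold change had the same sign in each reading, 0.35 by title, 0.35 by description and 0.69 with undisputed libraries alone (SE 0.24, adjusted p = 0.293). The undisputed libraries, with RMN030 the lowest, hold the same groups in every reading, so these values are not independent and the shared sign is partly built in. Klf7, a factor best known from neurons and adipocytes, ranged from 93.5 to 121 CPM and Klf11 from 21.2 to 35.8 CPM, and in both the groups overlapped in each reading of all 8 libraries. Their description log2 fold changes were -0.07 (SE 0.10) and -0.15 (SE 0.16).

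Set against the 9 other members within each library, Klf5 took a larger share in the later codes. Its CPM divided by the geometric mean CPM of the other 9 was 1.01, 1.17, 1.30 and 1.18 in RMN030 to RMN033 and 2.61, 2.37, 2.31 and 2.40 in RMN036 to RMN039. The geometric mean of the 9 itself ranged from 63.6 to 77.3 CPM. Without Klf2, the member with the fewest counts, it ranged from 101 CPM in RMN030 to 119 CPM in RMN032, so the order of libraries within a run depends partly on Klf2. Klf5 made up 3.47% to 4.36% of the summed CPM of the 10 genes in the earlier and 8.25% to 9.19% in the later codes. The ratio of Klf5 to Klf13 lay between 0.115 and 0.159 in the earlier codes and between 0.362 and 0.415 in the later codes. These ratios are within a library and so do not depend on how libraries are scaled; no p is given because the genes were chosen with their values known.

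**Figure D4:**
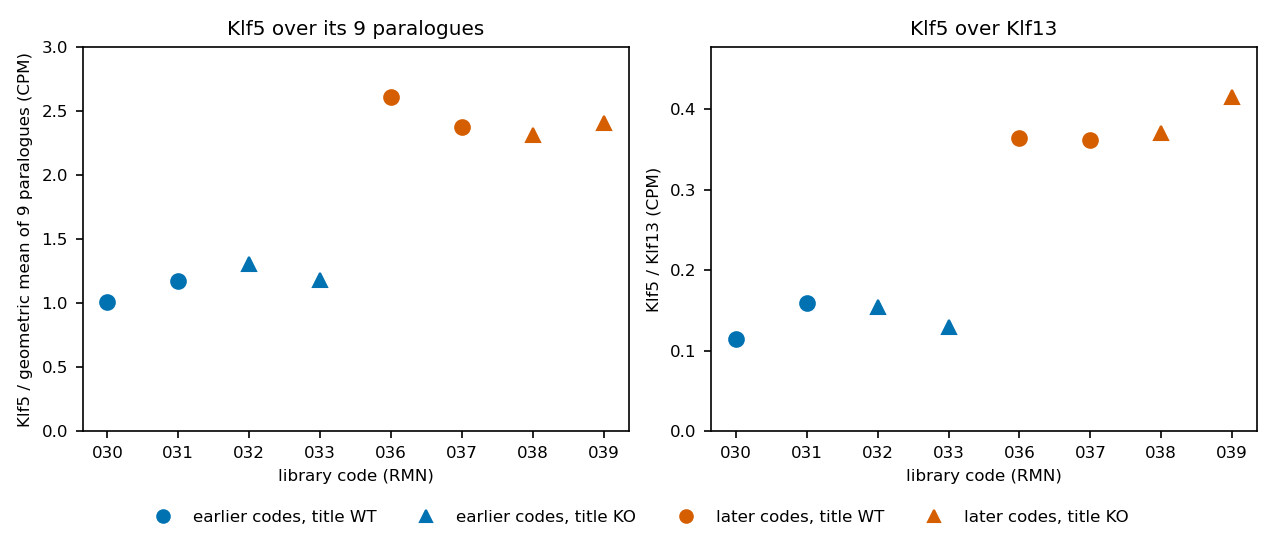
Klf5 CPM divided by the geometric mean CPM of its 9 paralogues (left) and by Klf13 CPM (right) in each library, linear axes from 0. Circles are WT and triangles KO by title, blue the earlier and orange the later codes. The left ratio is 1.01 to 1.30 in the earlier and 2.31 to 2.61 in the later codes. On the left, KO titles lie above WT titles in the earlier codes (1.30 and 1.18 against 1.01 and 1.17) and overlap them in the later codes. On the right, they overlap in the earlier codes, and KO titles lie above WT titles in the later codes (0.370 and 0.415 against 0.364 and 0.362).

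Other genes of the family were low or varied without a call. Of 16 further Klf and Sp genes (Sp factors share the zinc fingers), 11 were in the table and 8 were tested by title and by description, and 0 passed in any of the 3 readings. In edgeR 1 of the 8 had an unadjusted p under 0.05 by description and 0 by title. That gene, Klf16, was at 23.5, 22.2, 17.5 and 15.4 CPM in the earlier and 19.2, 33.5, 29.1 and 23.9 CPM in the later codes (log2 fold change 0.47, SE 0.21, adjusted p = 0.359). Sp3, with Sp1 a ubiquitous GC box factor that shares sites with Klf proteins, ranged from 41.5 to 79.2 CPM, Sp1 from 31.3 to 52.0, Sp2 from 13.9 to 26.5 and Sp4 from 12.4 to 22.9 CPM. Klf1, the erythroid factor, was at 0.807 CPM or less in every library, beside summed blood markers of 123 to 1356 CPM.

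Genes known to act on Klf factors were also compared. Of the kinases and Mef2 factors that lie upstream of Klf2 and Klf4, 0 of 7 tested passed in each of the 3 readings (edgeR, 0 at an unadjusted p under 0.05 in the undisputed libraries, 2 by title and 1 by description). Mef2d was higher in the later codes once title genotype was in the fit (0.49, SE 0.11, adjusted p = 0.0367). Mef2d was at 116, 138, 91.1 and 71.8 CPM in RMN030 to RMN033 and at 158, 162, 117 and 123 CPM in RMN036 to RMN039, so that within each run the libraries with WT titles were the higher ones. Its title log2 fold change was -0.51 (SE 0.18, adjusted p = 0.998). Of 10 corepressors and coactivators 0 passed in each reading (edgeR, 1 at an unadjusted p under 0.05 in the undisputed libraries, 0 by title and 2 by description), with the deacetylase gene Hdac2 at 0.65 by description (SE 0.19, adjusted p = 0.112). Of 7 ubiquitin ligases 0 passed in each reading, and 0 had an unadjusted p under 0.05.

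Among response programmes to which Klf genes belong, most of the genes that passed by description were lower in KO, that is, in the later codes. Of 22 immediate early genes, 1 rose and 5 fell by description, where 1.43% of all genes were called higher and 0.595% lower, with a median log2 fold change of -0.23 against -0.01 for all genes. Of the 22, 1 passed in the undisputed libraries (Nr4a1, lower, adjusted p = 0.0487, against 0.794% of all genes), and 0 passed by title (4 at an unadjusted p under 0.05). The nuclear receptor gene Nr4a1 fell by 0.80, Fos by 0.47, the antiproliferative gene Btg2 by 0.50, and also Junb by 0.47 and the mRNA decay gene Zfp36 by 0.44, both named after their values were seen. Rhob, a GTPase gene, rose by 1.12 (SE 0.17, adjusted p = 0.00377). Klf6, Klf4 and Klf10, which belong to the same early response, had values of -0.18, -0.13 and 0.05. Of 17 tested TGF-beta response genes 1 rose by description, the receptor gene Tgfbr2 (log2 fold change 0.50, SE 0.10, adjusted p = 0.0258), where 1.43% of all genes were called higher. Of 18 tested in the undisputed libraries 0 passed (edgeR, 2 at an unadjusted p under 0.05, Tgfbr2 at an adjusted p of 0.180). The TGF-beta-inducible Klf10 and Klf11 did not pass.

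Among 9 glucocorticoid response genes 2 fell by description and 0 rose, against 0.595% and 1.43% of all genes, while Klf9, itself glucocorticoid-induced, leaned the other way. Fkbp5, the co-chaperone of the glucocorticoid receptor, was at 105, 109, 112 and 108 CPM in RMN030 to RMN033 and at 59.2, 55.3, 73.0 and 80.3 CPM in RMN036 to RMN039 (log2 fold change -0.66, SE 0.13, adjusted p = 0.0174). Zbtb16, a zinc finger gene, was at 74.8, 56.02, 85.6 and 88.9 CPM in the earlier and 42.9, 52.1, 33.9 and 35.3 CPM in the later codes (-0.85, SE 0.17, adjusted p = 0.02003). Both groups of 4 libraries were apart for each gene, but the 2 genes were named because they passed for that division. Of all tested genes 5.09% lay wholly lower in KO by description. With undisputed libraries alone 0 of the 9 passed in edgeR (4 at an unadjusted p under 0.05), with adjusted p = 0.340 for Fkbp5 and 0.122 for Zbtb16. By title 0 of the 9 passed (1 at an unadjusted p under 0.05, Sgk1, higher in KO by 0.43 on the log2 scale, SE 0.15). Sgk1 was also higher in KO in the undisputed libraries (0.74, SE 0.18, edgeR adjusted p = 0.106). The direction of the list depended on the reading: 2 of the 9 values were positive by description, 3 in the undisputed libraries and 7 by title. Title and description assign 4 libraries in opposite ways. By description the median of the 9 was -0.18, against -0.01 for all tested genes. Per1 and Tsc22d3, 2 other genes of the list, had description values of -0.30 and -0.18 and did not pass (adjusted p = 0.213 and 0.430).

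The genes whose profile over the 8 libraries was most like that of Klf5 were sought by the root mean square difference of mean-centred log2 CPM, among 10302 genes with a mean of at least 5 CPM. The nearest was Arf6, a GTPase gene of endosome recycling (difference 0.13), at 15.3 to 21.5 CPM in the earlier and 30.5 to 35.8 CPM in the later codes. It was followed by the mitochondrial gene mt-Co2 (0.15) and Gm28661 (0.15), which have nearly equal CPM in every library and may share reads, by Mreg, the melanoregulin gene of organelle trafficking (0.16), and by Rhob (0.16). Among its paralogues Klf9 and Klf3 came nearest, at ranks 450 and 467 (0.39 and 0.40), and Klf13 was the farthest of those with a mean of at least 5 CPM, at rank 8668 (0.74). These likenesses describe 8 libraries and carry no p.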

How the data were processed

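RNA of sorted Langerhans cells was sequenced in 8 libraries. The authors deposited 1 table of raw read counts per Ensembl gene. Its making involved STAR 2.5.2b, featureCounts 1.5.0 and GRCm38 (mm10), per the submitters' processing notes. Annotation release, strandedness and handling of mates are not given in the sources used here. Among counts from 1 to 20, 60.1% were even, which would follow if both mates were counted. Column names were matched to both codes in the labels, and 0 columns were left unused. Symbols came from a table of gene names (25080 identifiers matched, 167 did not), coordinates and exon lengths from a GENCODE annotation of GRCm38.

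CPM are counts scaled to the column total. Under R 4.3.3, edgeR 4.0.16 fitted each contrast over all genes that filterByExpr kept (TMM, robust two-sided quasi-likelihood F-tests, Benjamini-Hochberg threshold 0.05), and SE were derived from F. The alternatives comprised DESeq2 1.42.0, limma 3.58.1 voom with quality weights, RLE factors, omission of the expression filter or its replacement by 1 CPM, omission of single libraries, blocking on replicate number, and fits within runs. Library totals in place of TMM were added after seeing the data. The fitting code was tested on simulated data with known fold changes. The 10 genes, the gene lists and the tests were chosen with earlier results of these data known. Named besides the 10 genes were Ezh2, other Klf and Sp genes, up to 4 members per list with the smallest p in a reading, and the 5 genes most like Klf5.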

Additional observations from a re-analysis of the deposited data

Results flagged for a closer look

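In groups of 4 libraries, 68 groups of 17 genes (the 10 Klf genes, Ezh2 and 6 other Klf and Sp genes, by title and by description) were examined for a library far from the other 3, and 3 were found, where chance gives about 1 in 20, or 3.4. Klf3 in RMN030 was at 24.7 CPM against 36.8 to 37.4 CPM in the other 3 libraries that are WT by title. For Ezh2, RMN031 (22.4 CPM) stood above the other 3 libraries that are WT by description (14.9 to 15.7 CPM). Sp1 in RMN030 was at 34.2 CPM against 45.1 to 46.4 CPM in the other 3 that are WT by description.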

How the results depend on the processing

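Klf5 passed by description under every alternative run, with log2 fold changes of 1.01 to 1.11 when each library was left out. In the undisputed libraries it passed with all 4 libraries under each other setting. Leaving 1 out there sets 1 library against 2, with the lone library assumed to vary like the other group, so those values (0.96 to 1.23 for Klf5) are no sign of stability. Without RMN031, with RMN030 as the lone WT library, Klf3 (0.99) and Klf13 (-0.54) also passed (adjusted p = 0.0351 and 8.0e-04). The block on replicate number, whose numbers did not pair the libraries (same-number correlations 0.052 to 0.10 by title and -0.0068 to 0.031 by description), gave 174 genes and 1 Klf gene by description, with Klf13 at -0.38 (adjusted p = 0.0606), and turned Klf2 there to 0.21 and Klf9 by title to -0.010. The cause of the changes below was not tested.

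Klf genes called numbered 1 to 3 (undisputed), 1 to 2 (description), and 0 in both title fits with libraries left out. All genes called were then 263 to 629, 140 to 219, 0 to 0 by title and 0 to 4 by title with run. Without a filter they were 440 (undisputed), 1 (title) and 139 (title with run), with DESeq2 305, 19, 46 and, by description, 660, with voom 3 (title with run), and 57 by title within the earlier run.

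Values that did not pass changed sign. With libraries left out, the ranges were -0.15 to 0.16 for Klf4, -0.053 to 0.060 for Klf6 and -0.45 to 0.041 for Klf11 (undisputed); -0.19 to 0.21 for Klf5, -0.13 to 0.16 for Klf9, -0.15 to 0.075 for Klf11 and -0.14 to 0.043 for Klf13 (title); -0.37 to 0.37 for Klf2 and -0.011 to 0.12 for Klf10 (description). With run as a covariate they were -0.037 to 0.075 for Klf5, -0.10 to 0.11 for Klf9, -0.015 to 0.15 for Klf10 and -0.14 to 0.068 for Klf11. In the undisputed libraries Klf6 was -0.00089 without a filter, and Klf4 and Klf6 were -0.025 and -0.037 on library totals. With voom, Klf5 and Klf9 were -0.14 and -0.086 by title and Klf2 0.50 by description. Without RMN030 and RMN031, Klf5, Klf9 and Klf13 were -0.40, -0.021 and 0.14 by title, Klf2 1.35 by description, and Klf2, Klf4 and Klf9 0.39, -0.11 and 0.25 by title with run. Title values within the earlier run were -0.26 (Klf9), -0.17 (Klf10) and 0.052 (Klf11), and within the later run 0.39 (Klf2) and -0.11 (Klf4). Klf2 was 0.23 by description with title genotype as a covariate. No paired analysis was possible in the undisputed libraries because their groups share no replicate number.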
